A study of Drosophila melanogaster with 63 samples.

Results

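Su(Hw) bound 991 of its 4525 reference sites (21.9%) without a reference site of CP190, NURF301 or Mod(mdg4)67.2, and these partnerless sites were followed through every knockdown. They were chosen by peak overlap in the mock lists alone. Reference sites were merged peaks present in 4 or more of 6 mock libraries of an antibody (for Mod(mdg4)67.2, 2 or more of 3), and a Su(Hw) site was kept when it shared not even 1 bp with a site of another protein. The rule therefore used the mock peaks of all 4 proteins, which are given below as a description. The other 3534 Su(Hw) sites comprised 1465 with CP190 only (32.4%), 973 with CP190 and Mod(mdg4)67.2 (21.5%), 965 with all 3 partners (21.3%) and 131 with another combination (2.9%).

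Su(Hw), suppressor of Hairy-wing, is a zinc finger protein that binds DNA directly and nucleates the gypsy insulator, a chromatin element that can block the action of an enhancer on a promoter. Su(Hw) recruits the BTB domain proteins CP190 and Mod(mdg4)67.2, which are both needed for gypsy insulator activity. Many Su(Hw) sites are known not to act as insulators, and in the ovary Su(Hw) represses neuronal genes. NURF301 is the largest subunit of NURF, an ISWI-family complex that slides nucleosomes.

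The 63 samples were ChIP-seq libraries of the Drosophila line Kc167, which is female and of embryonic origin, and of the line Kc-MOD-GFP, labelled transfected and precipitated with an antibody against GFP. For knockdown, Kc167 cells took up 5 ug of double-stranded RNA that targeted Nurf301, Cp190 or su(Hw), and were grown on for 4 days. The mock cells formed a mock and a mock2 series, told apart by the sample titles alone, with what mock cells received not given in the sources used here. Mock and mock2 groups held 3 libraries per antibody (Mod(mdg4)67.2 in the mock series only), the Nurf301 and su(Hw) knockdowns and the GFP group 3, and the Cp190 knockdown 2. By title style the mock series matches the Nurf301 and Cp190 knockdowns, and mock2 the su(Hw) knockdown. Su(Hw) ChIP after Cp190 knockdown was not analysed here. The promoter behind the GFP fusion and whether replicates came from separate cultures are not given either, so the spread between libraries may be technical.

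The authors called peaks library by library, and a missing peak means that none passed their threshold. Read depth is unknown, and the number of peaks is given instead. That number is no clean measure of depth, because a knockdown can itself remove peaks. The Su(Hw) lists ranged from 3990 to 4607 peaks in mock, from 5165 to 5358 in mock2 and from 2625 to 3539 after Nurf301 knockdown. The su(Hw) knockdown left 74, 77 and 96 Su(Hw) peaks, and the Nurf301 knockdown 253, 1 and 24 NURF301 peaks, so the targeted protein was depleted in the lists of its own knockdown. CP190 lists held 10095 to 10553 peaks (mock), 5984 to 8813 (mock2) and 1203 and 1280 (Cp190 knockdown).

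The name partnerless held strictly at some of the sites and not at others. No peak of CP190, NURF301 or Mod(mdg4)67.2 lay at 525 of the 991 sites (53.0%) in any mock library, while 466 (47.0%) had such a peak in too few libraries to count as a reference site. CP190 made up nearly all of these. Its peaks lay in 1 mock list at 137 sites, in 2 lists at 123 and in 3 lists at 203, just below the 4 that the rule asks for. In each mock library, read at sites chosen without that library, CP190 had a peak at 31.3%, 21.3% and 30.5% of partnerless sites in the mock series and at 0.127%, 2.5% and 19.5% in mock2. The series overlapped in no library, and 297 sites (30.0%) had CP190 peaks in the mock series and none in mock2, whose CP190 lists were also shorter. The rule itself favours this pattern, because a CP190 site in all 3 mock libraries and any mock2 library counts as a reference site. The site sets also differed, with 977, 942 and 977 sites for the mock libraries and 789, 800 and 852 for mock2. At the same 991 sites the shares were 30.9%, 20.3% and 30.1% in mock and 0.101%, 2.02% and 16.8% in mock2.

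NURF301 and Mod(mdg4)67.2 were nearly absent from the partnerless sites. NURF301 had a peak at 0.404%, 0.808% and 0% of them in the mock libraries and at 0.505%, 0% and 0.404% in mock2. The 11 sites concerned, named here because they are few and after their values were seen, lay at or near Pde8, ptc (the Hedgehog receptor gene), psq (a BTB domain transcription factor gene), CG15312, CG4496, Smr, E(spl)m3-HLH, shd, px, hwt, and a boundary shared by CG43845, Itpr and Nmdar1. Mod(mdg4)67.2 had a peak at 11 sites, each in library 2 and in no other.

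GFP ChIP in Kc-MOD-GFP cells gave a measure of Mod(mdg4) that the choice of sites had not used. GFP peaks lay at 4, 13 and 0 of the 991 partnerless sites (0.404%, 1.31% and 0%; exact Clopper-Pearson 95% intervals of 0.11% to 1.03%, 0.7% to 2.23% and up to 0.372%, over sites and for counting error only). At Su(Hw) sites with Mod(mdg4)67.2 the same libraries held 86.9%, 97.7% and 46.7%, and at sites with another partner but no Mod(mdg4)67.2 site 17.0%, 37.2% and 0.313%. In every GFP library the partnerless share was the lowest of the 3 classes. In library 3, however, the 0.313% at sites without Mod(mdg4)67.2 lay within the partnerless interval of up to 0.372%. Any GFP peak lay at 15 partnerless sites, 5 of which also had the single Mod(mdg4)67.2 peak. GFP peaks in 2 lists lay at 2 of them, inside Elk, a potassium channel gene (2R, 17911909 to 17912930), and inside bru3, a gene of the Bruno family of RNA-binding proteins (3L, 13568130 to 13568733). Both sites had CP190 peaks in 3 mock lists.

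**Figure D1:**
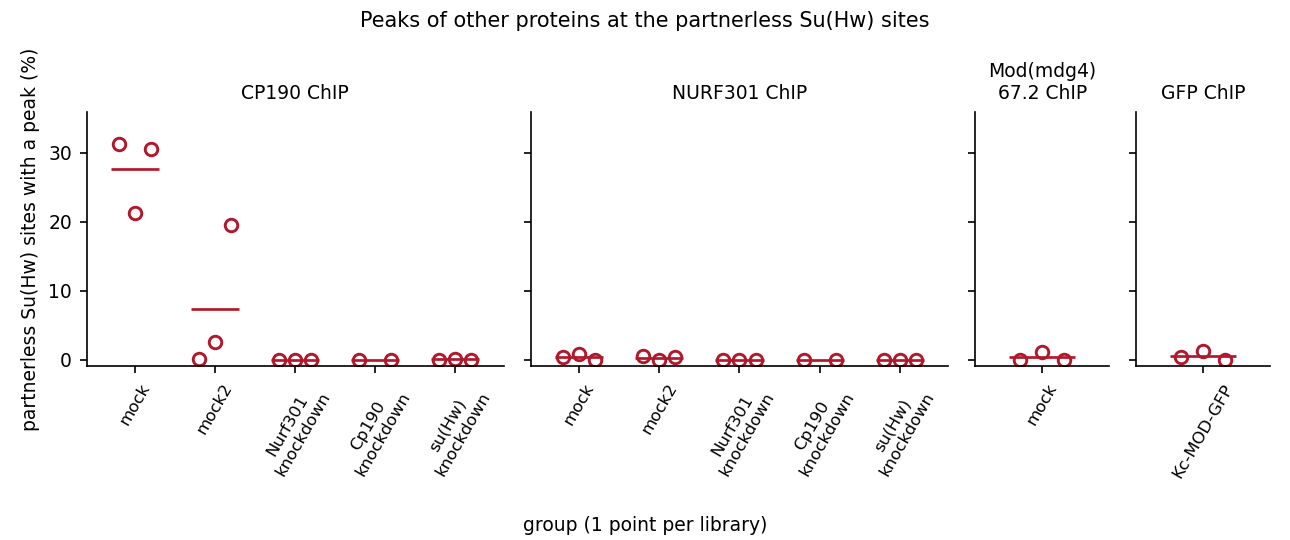
Share of the partnerless Su(Hw) sites (percent, vertical axis) with a peak of CP190, NURF301, Mod(mdg4)67.2 or GFP, 1 point per library and a line at the group mean. CP190 stands at 21.3% to 31.3% in the mock series and at 0.127% to 19.5% in mock2, and no other group exceeds 1.31%. Each mock or mock2 library is read at sites chosen without it, so the site sets differ between libraries.

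Partnerless sites were weaker and narrower than other Su(Hw) sites. Strength is the percentile (0 to 100) of a site's deposited fold enrichment within each Su(Hw) list, averaged over the 6 mock lists with 0 for a missing peak. Its median was 32.4 at partnerless sites (quartiles 18.3 and 52.2), 54.9 at sites with CP190 only and 56.2 over all sites with a partner. The median width was 587 bp, against 759 bp and 842 bp. A wide site shares a base with a partner site more easily, so the rule favours narrow sites as partnerless. Strength was taken from the mock lists that also chose the sites. How much of either difference the rule made was not tested. A peak in all 6 mock lists was found at 584 partnerless sites (58.9%), in 5 lists at 258 and in 4 lists at 149, while 92.1% of the partnered sites had all 6. The rank of partnerless sites differed between the mock series. Among those with a peak, the median percentile was 20.4, 21.9 and 21.3 in the mock libraries and 37.1, 48.3 and 58.2 in mock2, with no overlap. Sites with CP190 only went from 44.3, 47.1 and 36.7 to 64.0, 66.5 and 70.8, while all partnered sites stood at 55.5 to 60.1 in every mock library.

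Ten-a, which encodes a teneurin that matches synaptic partners, held the strongest partnerless site (X, 12279536 to 12280745). Its percentile ran from 84.8 to 99.9 over the 6 mock lists (median 98.7) and was 99.7, 90.9 and 86.1 in the 3 Nurf301 knockdown lists. A site inside both CG15465 and rg, the latter encoding an A-kinase anchoring protein (X, 5163004 to 5164426), ranged from 92.8 to 100 (median 95.8) and stood at 77.2, 41.2 and 69.0 after Nurf301 knockdown. At the boundary of CG14736 (3R, 12043150 to 12044570) the mock percentiles were 94.1 to 97.3 (median 95.9) and the knockdown percentiles 29.6, 34.6 and 64.9, all lower. Percentiles rank a site within its own list and the knockdown lists were shorter, so they show an order and not an amount of binding. Pde9, a phosphodiesterase gene, held sites at X, 12789663 to 12790782 (mock median 97.0, knockdown 88.1, 98.7 and 76.1) and X, 12873224 to 12874009 (mock median 97.4, knockdown 66.1, 23.7 and 38.7). The other 5 of the 10 strongest sites lay inside Ten-a (X, 12135132 to 12136174), wry (2L, 1838735 to 1839774), CG42340 (X, 6466099 to 6467688), CG15465 and rg (X, 5113270 to 5114216) and dnc, the cyclic AMP phosphodiesterase gene (X, 3212950 to 3214336). Each of the 10 kept a peak in every Nurf301 knockdown library, 9 of 10 lay inside a gene away from its ends, and none had NURF301, Mod(mdg4)67.2 or GFP peaks. CP190 had a peak in 1 to 3 mock lists at 6 of the 10.

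Partnerless sites lay mostly inside genes. A gene boundary, meaning within 500 bp of either end of a protein-coding gene, held 106 of them (10.7%), against 14.3% of sites with CP190 only and 27.0% of all partnered sites. Inside a gene and away from its ends lay 646 (65.2%, against 57.1% and 47.3%), and outside genes 239 (24.1%, against 28.6% and 25.6%). Taken over sites, the gene that held a partnerless site had a median length of 48600 bp (721 sites), against 34200 bp at partnered sites. A gene with several sites counts several times in these medians. The median over all protein-coding genes, taken over genes and not over sites, was 2160 bp. It has another unit, so it is not a baseline for the medians over sites. The nearest reference site of CP190, NURF301 or Mod(mdg4)67.2 was a median of 6440 bp away. It lay within 1 kb at 87 sites (8.78%) and beyond 10 kb at 340 (34.3%). The nearest other Su(Hw) site was a median of 7340 bp away, against 5660 bp for partnered sites. Partnerless sites made up 20.1% to 24.5% of the Su(Hw) sites of each large chromosome arm and were most frequent on X, with 225 of 917.

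Partnerless sites were compared with 6 gene lists. Of 13911 protein-coding genes, 560 (4.03%) held a partnerless site or had one at an end, and of a list of 36 neuronal genes 14 did (38.9%). The same list held partnered Su(Hw) sites in 26 genes (72.2%), against 14.1% of all genes. The median length of the listed genes was 27200 bp, and the part of length in these shares was not tested. The 23 sites lay in Sh, para, cac and Shal, which encode voltage-gated ion channels, in Rdl, a GABA receptor gene, in VGlut, Syt1, Syn, nSyb and brp, which act at the presynaptic terminal, and in Ace, Nrx-1, dlg1 and pros. Sh, the Shaker potassium channel gene, held 4 partnerless sites, and every one had a peak in all 3 Nurf301 knockdown lists. The strongest (X, 17946921 to 17947516) had mock percentiles of 37.0 to 92.0 (median 77.4) and knockdown percentiles of 9.25, 95.3 and 30.7. The sodium channel gene para held a site (X, 16461187 to 16462110) with 22.8 to 92.6 in mock lists (median 62.0) and 13.6, 56.6 and 36.6 after knockdown. Of the 23 sites, 9 had a peak in every Nurf301 knockdown list and 9 in none.

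The remaining gene lists held few partnerless sites. Ubx and Antp were 2 of 8 Hox genes with one. The Ubx site (3R, 16681025 to 16682440) had a strength of 82.8, mock percentiles of 55.5 to 99.2 (median 87.2) and knockdown percentiles of 97.0, 99.7 and 86.1, with CP190 in 3 mock lists. The Antp site (3R, 6990830 to 6991297) had a strength of 13.1, a peak in 4 mock lists and none after Nurf301 knockdown. Of 21 insulator protein genes only shep had such sites, 4 in number, and it encodes an RNA-binding protein that restrains gypsy insulator activity in neurons. Of 13 insulator-linked loci only ct had one, of 28 cell cycle genes only CycD, and of 4 NURF subunit genes none. Among all genes, Ten-a held 8 partnerless sites and Pde9, Ptp99A and bru3 7 each. The outcomes differed: Pde9 kept 5 of 7 in every Nurf301 knockdown list, Ten-a 2 of 8 and Ptp99A, a receptor tyrosine phosphatase gene, 0 of 7. At bru3 none of the 7 had a peak in any of these lists, nor had the 4 at heph, which encodes a polypyrimidine tract-binding protein. Ptp99A, bru3 and heph were picked after their values were seen.

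After Nurf301 knockdown Su(Hw) peaks were found at fewer partnerless sites in the full lists, and at equal list length the direction depended on the mock series and the ranking. A peak lay at 511, 274 and 371 of the 991 sites, or 51.6%, 27.6% and 37.4% (38.9% ± 12.0, SD, n = 3). In mock libraries, each read at sites chosen without it, the shares were 65.2%, 69.9% and 43.1%, and in mock2 98.4%, 98.9% and 99.6% (79.2% ± 23.5 over all, SD, n = 6). The knockdown libraries stood below every mock2 library. The highest of them, at 51.6% of 991 sites, stood above mock replicate 3, at 43.1% of its 1369 sites. These site sets differ: mock libraries were read at 1361, 1362 and 1369 sites and mock2 at 1000, 997 and 994. At the same 991 sites, which they had helped to choose, mock libraries held 89.6%, 96.1% and 59.5%, all above the knockdown libraries. The difference was -40.3 percentage points against all mock libraries, -20.5 against the mock series and -60.1 against mock2. These values carry the unequal site sets, which differ most for the mock series. With every library read at the same 991 sites, the difference against all mock libraries was -51.8 points. At partnered sites, with mock libraries again read at sites chosen without them, the 3 differences were -21.2, -18.7 and -23.7 points. The partnered share went from 97.1% ± 3.65 (SD, n = 6) to 76.0% ± 10.2 (SD, n = 3).

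**Figure D2:**
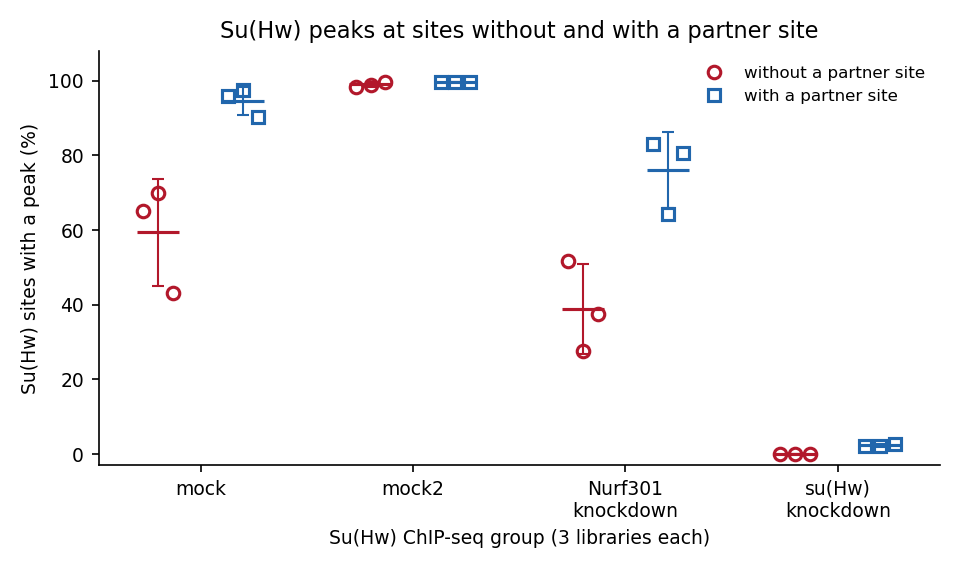
Share of Su(Hw) sites with a Su(Hw) peak (percent, vertical axis) at sites without (circles) and with (squares) a partner site, 1 point per library, with the mean and SD of 3 libraries. Partnerless sites stand at 43.1% to 69.9% in mock, 98.4% to 99.6% in mock2, 27.6% to 51.6% after Nurf301 knockdown and 0% after su(Hw) knockdown. Each mock or mock2 library is read at sites chosen without it, so its site set differs from that of the knockdown libraries.

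When every Su(Hw) list was cut to its 2625 peaks of highest -log10 q, the length of the shortest Nurf301 knockdown list, partnerless sites with a peak were 23.4%, 27.6% and 19.3% after knockdown (23.4% ± 4.15, SD, n = 3). They were 12.0%, 12.3% and 12.0% in the mock libraries and 21.4%, 29.9% and 35.7% in mock2 (20.6% ± 10.3 over all, SD, n = 6). These libraries were again read at sites chosen without them, a larger set for the mock series. At the same 991 sites the shares were 16.4%, 17.0% and 16.5% in mock and 21.6%, 30.1% and 35.8% in mock2 (22.9% ± 8.22 over all, SD, n = 6). The knockdown libraries lay between the mock series and overlapped mock2. Ranked by the deposited fold enrichment instead, the shares were 36.9%, 27.6% and 27.9% after knockdown (30.8% ± 5.28), 15.3%, 17.1% and 13.6% in mock and 37.9%, 47.7% and 58.8% in mock2. At the same 991 sites they were 21.0%, 23.5% and 18.8% in mock and 38.2%, 48.0% and 58.9% in mock2. Cutting only the mock lists, to the mean knockdown length, turned the difference to 9.15 points by -log10 q and left -2.32 points by fold enrichment. Here too each mock library was read at sites chosen without it. These cuts of all lists, and every cut by fold enrichment, were chosen after the data were seen. All 3 knockdown lists were shorter than all 6 mock lists, so the knockdown and a lower depth cannot be told apart in the full lists.

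**Figure D3:**
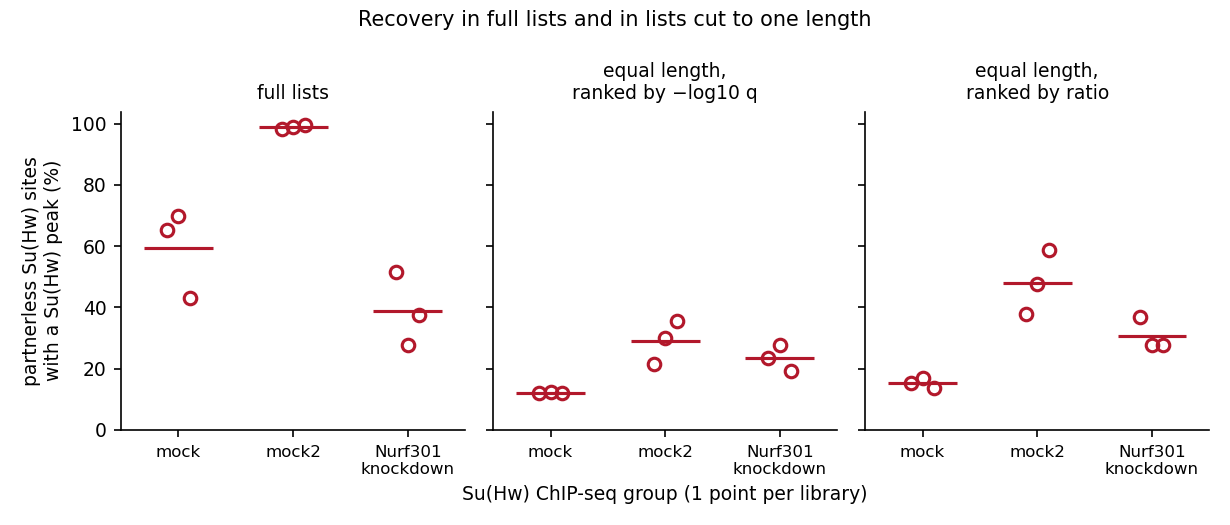
Partnerless Su(Hw) sites with a Su(Hw) peak (percent, vertical axis) in full lists and in lists cut to 2625 peaks by -log10 q or by deposited fold enrichment, 1 point per library and a line at the group mean. In both cut panels the Nurf301 knockdown libraries lie above all 3 mock libraries, and below or among the mock2 libraries. Each mock or mock2 library is read at sites chosen without it, so its site set differs from that of the knockdown libraries.

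The partnerless sites of the shortest knockdown list lay mostly within those of the longer lists. Of the 274 sites with a peak in replicate 2, 268 (97.8%, and 52.4% of the 511) also had one in replicate 1 and 244 (89.1%, and 65.8% of the 371) in replicate 3. A peak in all 3 libraries was kept at 243 sites (24.5%), in 2 at 129, in 1 at 169 and in none at 450 (45.4%). Among partnered sites 63.3% had all 3 and 14.8% none, and among sites with CP190 only 52.3% and 21.2%.

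**Figure D4:**
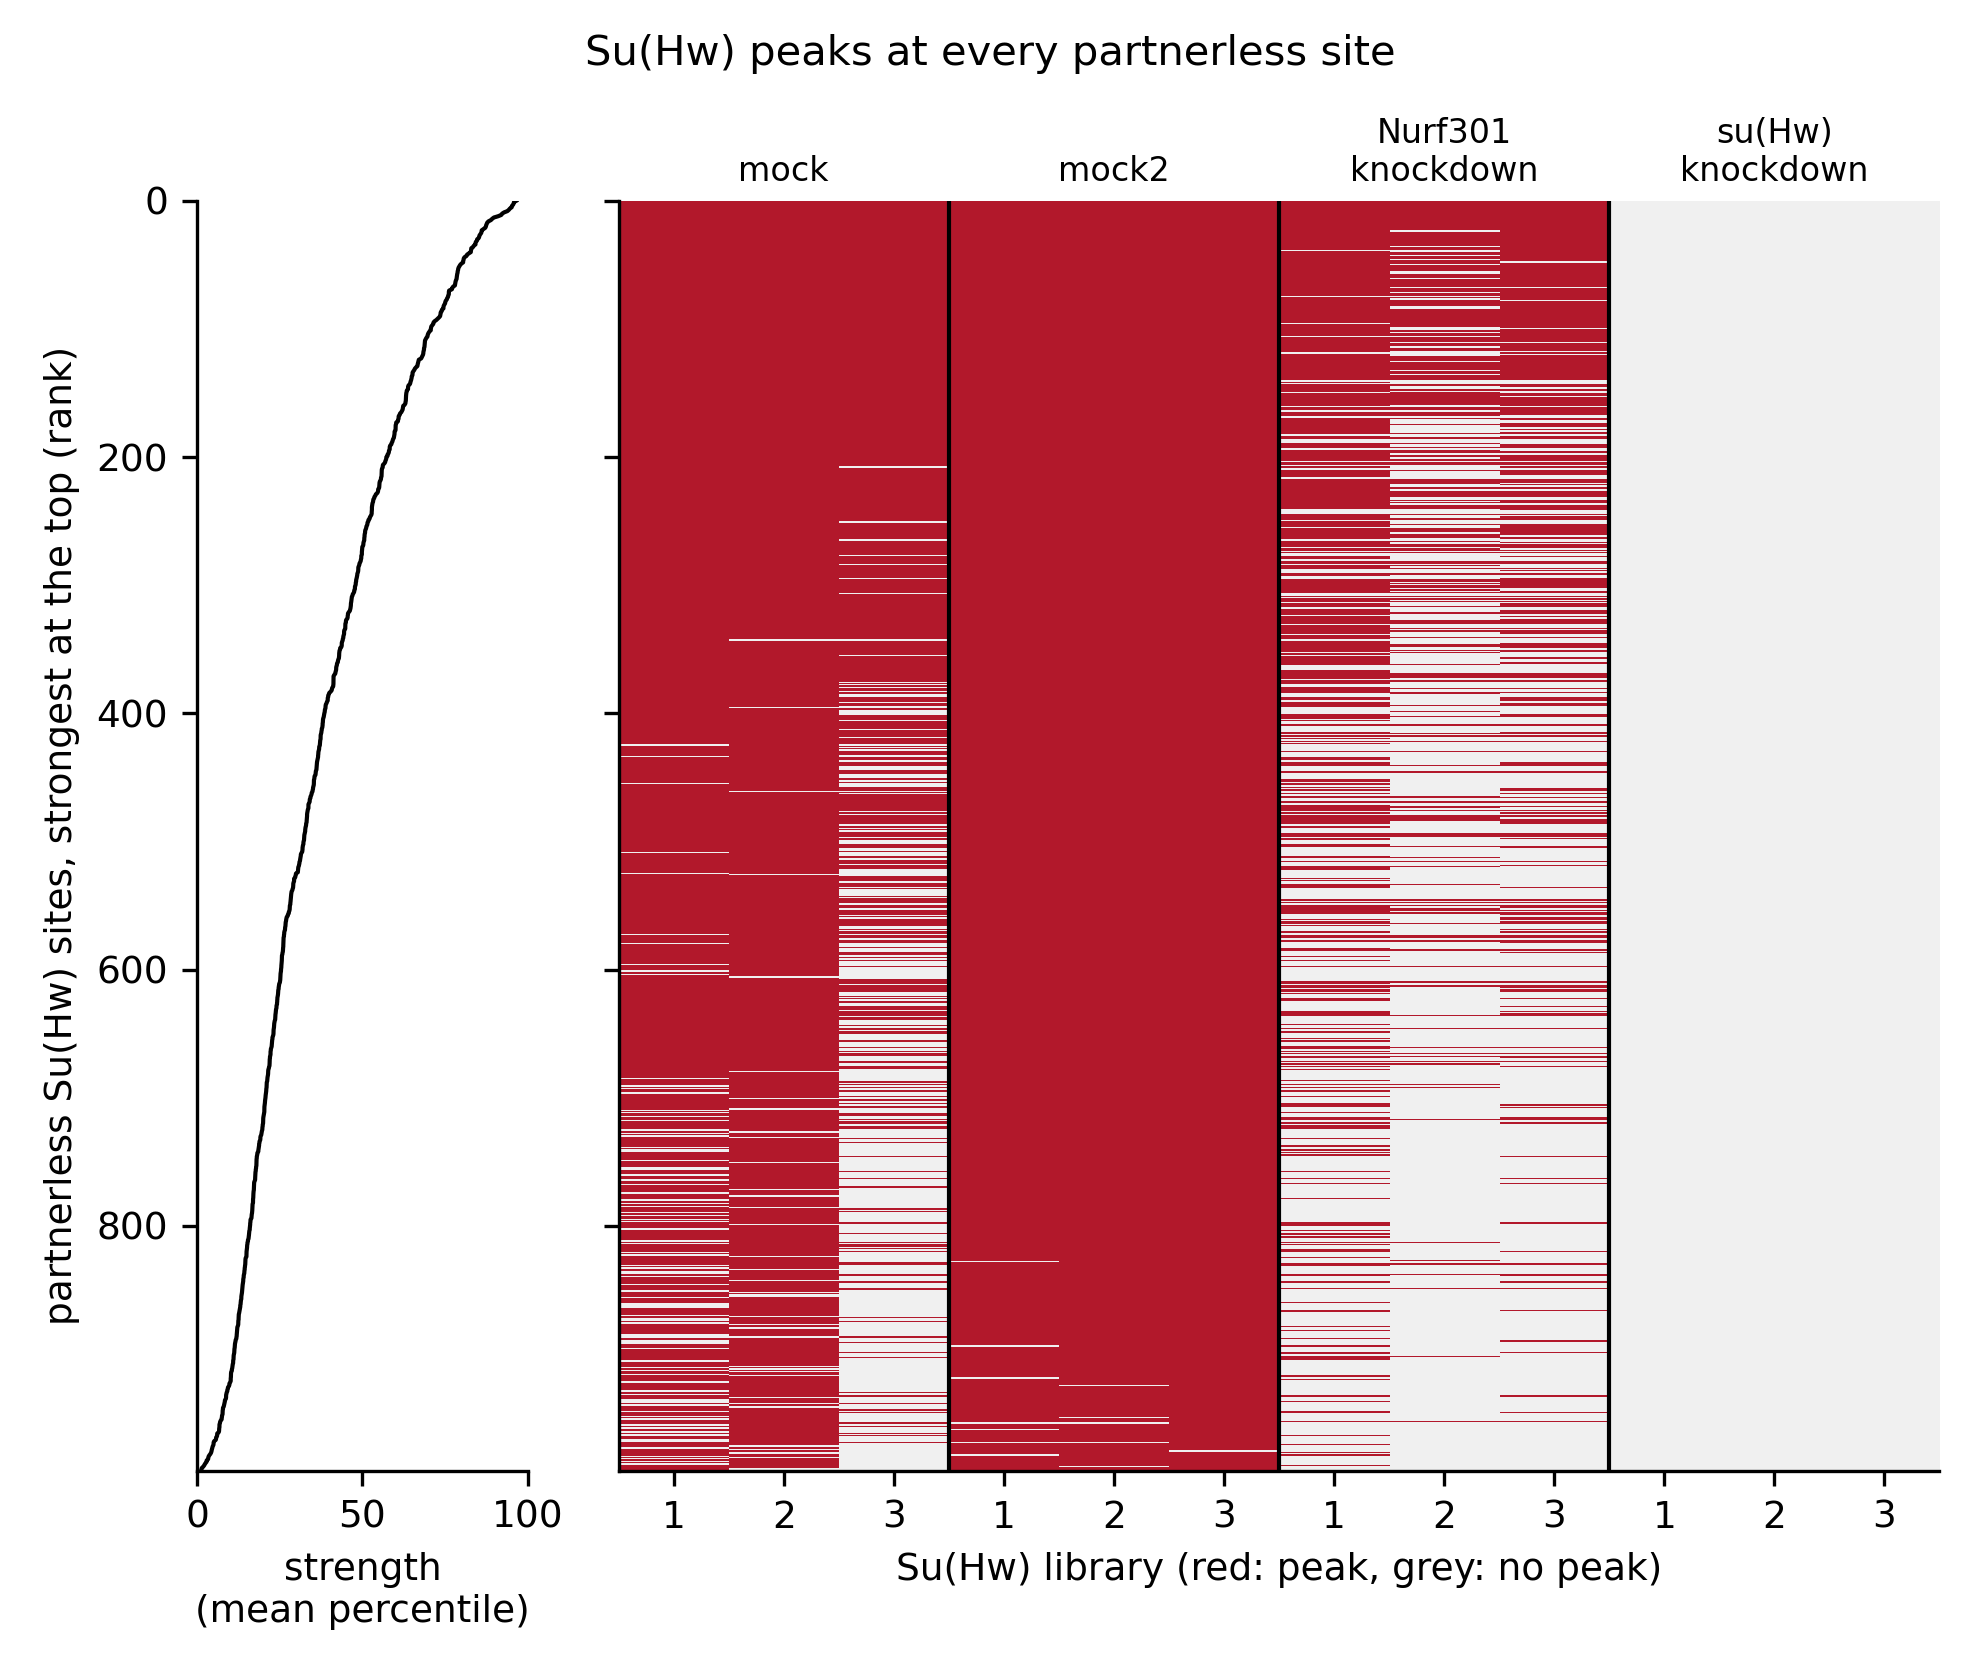
The partnerless Su(Hw) sites as 1 row each, ordered by strength (left panel, mean percentile), with a Su(Hw) peak in red and none in grey, for 12 libraries (horizontal axis). Missing peaks gather at the weaker sites in mock replicates 1 and 3 and in all Nurf301 knockdown libraries, and the su(Hw) knockdown columns are empty.

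Strength in mock cells went with what remained after Nurf301 knockdown. By quartile groups of all reference Su(Hw) sites, 530 partnerless sites fell in the weakest, 213 and 133 in the middle and 115 in the strongest quartile. From weakest to strongest, the mean share with a knockdown peak was 18.1% ± 10.1, 44.9% ± 17.3, 67.7% ± 15.0 and 90.4% ± 9.8 (SD, n = 3). Partnered sites of the same quartile groups stood at 43.9% ± 13, 71.2% ± 11.9, 83.7% ± 9.68 and 91.7% ± 7.48, and sites with CP190 only at 30.4% ± 10.4, 56.9% ± 14.2, 79.9% ± 12.7 and 90.8% ± 8.48. In the weakest quartile each knockdown library had a lower share at partnerless than at partnered sites, with 29.2%, 9.62% and 15.3% against 53.2%, 29.1% and 49.5%. In the strongest quartile the shares were 96.5%, 79.1% and 95.7% against 95.8%, 83.1% and 96.3%. In the weakest quartile the lowest mock shares showed an order of the same kind, at 32.5% of partnerless and 66.8% of partnered sites. The highest mock shares did not, at 99.8% and 99.5%. The mock libraries had helped to choose these sites.

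**Figure D5:**
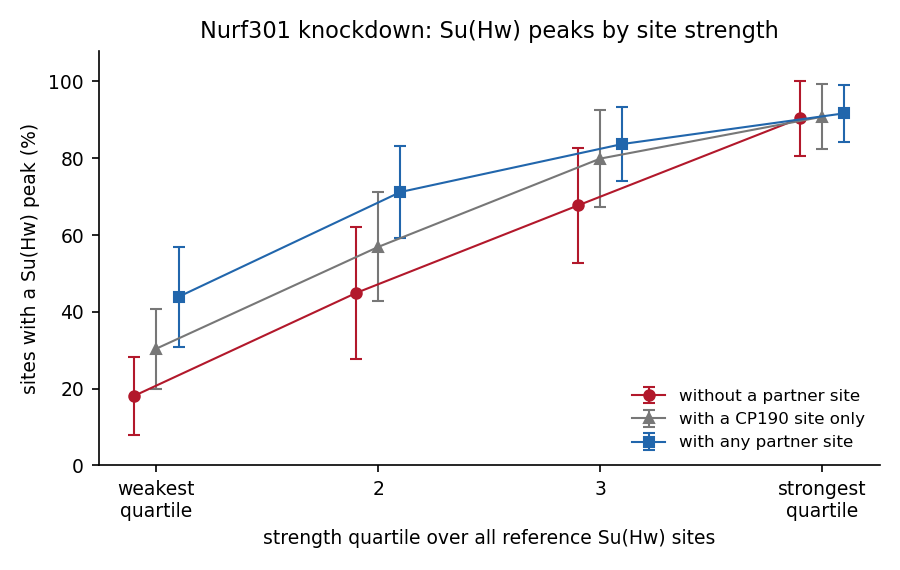
Share of Su(Hw) sites with a Su(Hw) peak after Nurf301 knockdown (percent, mean and SD of 3 libraries) by strength quartile. Partnerless sites rise from 18.1% to 90.4% and partnered sites from 43.9% to 91.7%.

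Recovery was also read by the number of mock lists with a CP190 peak. Partnerless sites with a CP190 peak in 3 mock lists had a Su(Hw) peak at 64.0%, 40.9% and 51.2% in the Nurf301 knockdown libraries, against 48.5%, 22.7% and 32.4% of the 528 sites without any CP190 peak. The means were 34.5% with no list, 37.2% with 1, 37.7% with 2 and 52.1% with 3. Sites just outside the rule, with CP190 in 4 lists (299 sites), stood at 67.2%, 38.5% and 56.9%. From the weakest to the strongest quartile, the means were 30.4%, 62.3%, 63.4% and 89.3% with CP190 in 3 lists and 13.8%, 39.1%, 68.0% and 89.7% with none, so no order held in all 4 quartiles. Just outside the Su(Hw) threshold, 379 sites without a partner had Su(Hw) in 3 mock lists and kept 0.264%, 0% and 0% in the knockdown libraries, against 7.38%, 0% and 0.671% of the 149 members with 4 lists. Partnerless sites within 1 kb of another protein's site stood at 36.8%, 16.1% and 21.8%, and their median strength was 18.1.

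Per site, presence in 6 mock and 3 knockdown libraries was compared by a two-sided Fisher exact test with Benjamini-Hochberg adjustment over all merged sites that could reach a p of 0.05. After Nurf301 knockdown 117 of 509 tested partnerless sites (23.0%) were called lost (highest adjusted p = 0.0444, Fisher exact), against a background of 26.8% of all 1533 tested Su(Hw) sites, and 313 had an unadjusted p under 0.05. Sites with peaks in too many or too few libraries could not reach 0.05, and both totals leave them out. Counted over all sites, the calls were 117 of 991 partnerless, 294 of 3534 partnered and 411 of 5438 merged sites. The 23.0% therefore does not mean fewer losses than elsewhere. Members needed mock peaks to be chosen, so a loss could be called and a gain could not, and the count is a description. The only pattern called was a peak in all 6 mock and no knockdown lists, which passes only when at least 23.8% of the tested sites show it. The count was 0 without knockdown replicate 2 or 3, 203 without knockdown replicate 1, 311 without mock replicate 3 and 0 against mock lists cut to the knockdown length. With 6 mock and 2 knockdown libraries the pattern passes only when at least 71.4% of the tested sites show it. All sites of the pattern pass or fail together, so these counts do not measure how far the losses depend on a replicate. It was also 0 against the mock series alone, where 3 against 3 libraries cannot reach 0.05. Of the 584 partnerless sites with a peak in all 6 mock lists 117 had none after knockdown and 240 (41.1%) had all 3, against 294 (9.03%) and 2226 (68.4%) of 3256 partnered ones.

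The 5 strongest sites of that pattern all lay inside genes. A further Ten-a site (X, 12093917 to 12094570) had mock percentiles of 26.9 to 98.8 (median 69.2) and no peak in any Nurf301 knockdown list. Inside Nlg4, which encodes a neuroligin, a postsynaptic adhesion protein (3R, 20231100 to 20232429), the mock percentiles were 35.0 to 88.0 (median 73.5). Inside Ace, the acetylcholinesterase gene (3R, 13246750 to 13247334), they were 34.1 to 89.8 (median 58.9). CG42673 (3L, 9575539 to 9576173; median 58.7) and CG6959 (3R, 11846056 to 11846722; median 61.9) held the others. All 5 were far weaker than the 10 strongest sites, with strengths of 59.7 to 64.7, and CP190 had peaks in 2 or 3 mock lists at Nlg4, CG42673 and Ace and in none at the other sites.

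After su(Hw) knockdown no partnerless site had a Su(Hw) peak in any of the 3 libraries (0 of 991 in each; exact Clopper-Pearson upper 95% bound 0.372%). The Su(Hw) peaks that remained on the main chromosomes lay elsewhere, at 74, 77 and 96 of the 3534 partnered sites (2.09%, 2.18% and 2.72%). At sites with all 3 partners 105 of 965 (10.9%) had a peak in at least 1 of these lists, and at sites with CP190 only 1 of 1465. Of 991 tested partnerless sites 584 were called lost (highest adjusted p = 0.0156, Fisher exact), against a background of 76.3% of 4881 tested sites, and 842 had an unadjusted p under 0.05. The 584 were those with a peak in all 6 mock lists. No partnerless site had a knockdown peak, so the call was fixed by presence in mock lists. The count is a description, and its place below the background does not mean a smaller loss. The count was 0 against mock2 alone, where 3 against 3 libraries cannot reach 0.05, and 0 against cut mock lists. Mock lists cut to the knockdown length held a mean of 0.402% of partnerless sites. Lists that short hold few peaks by construction, and their length is itself an outcome of the knockdown. This cut therefore cannot measure the loss. In full lists the mock2 libraries held 98.4% to 99.6%. Among partnered sites the remaining peaks were more frequent in the weakest quartile of mock strength (7.14%) than in the strongest (0.984%), and partnerless sites stood at 0 in every quartile.

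CP190 and NURF301 did not appear at partnerless sites in any knockdown, apart from 1 peak. CP190 had a peak at 0 of 991 in all 3 Nurf301 knockdown and both Cp190 knockdown libraries and at 0, 1 and 0 after su(Hw) knockdown, against 17.5% ± 13.5 (SD, n = 6) in mock libraries. The lowest mock library, mock2 replicate 1, stood at 0.127%, close to the knockdown libraries, and with mock lists cut to knockdown length the mock share fell to 0.0587% or less. The single peak lay at the boundary of Nrx-1, the neurexin gene (3R, 22468814 to 22469497), a site of strength 15.6 that is 96 bp from another protein's reference site. NURF301 had no peak at any partnerless site in the 8 knockdown libraries, against 0.353% ± 0.311 (SD, n = 6) in mock libraries. At partnered sites CP190 remained at 27.1% to 47.9% after Nurf301 knockdown, 13.8% and 15.3% after Cp190 knockdown and 5.94% to 7.53% after su(Hw) knockdown.

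No partnerless site was called as gaining CP190 or NURF301 by the Fisher exact test, and none had an unadjusted p under 0.05 for a gain. The background of gained sites was 0.0% for CP190 after Nurf301 knockdown (4759 tested) and after Cp190 knockdown (4941 tested) and 0.0518% after su(Hw) knockdown (3 of 5793 tested). For NURF301 it was 0.0% in each of the 3 knockdowns. The 203, 123 and 203 partnerless sites with enough peaks to be tested for CP190, and the 3 or 4 for NURF301, had these peaks in mock lists. They could not show a gain, so the count of 0 adds nothing to the shares above. Losses were not read either, because the rule kept out sites where these proteins were frequent in mock cells.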

How the data were processed

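Peak lists of 46 of the 63 samples were used; the 17 input samples have no list here and entered no comparison. The submitters' processing notes name the peak caller MACS2 (version 2.2.7.1), the aligner Bowtie2 (version 2.4.2), Picard (version 2.25.2) and SAMtools (version 1.12), and settings, controls and genome build are not given in the sources used here. The authors deposited, for each peak, a score, a ratio (fold enrichment at the summit), and -log10 p and -log10 q values. These were used only to rank or filter peaks within a list. Coordinates are those of the lists, counted from 1. Genes were named from their position in the RefSeq table of Release 6, on the assumption that the lists use that release; it gives no strand, exon or intron.

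Work was done in Python 3.11.15 with the packages pandas 2.3.3, scipy 1.17.1, matplotlib 3.10.9 and numpy 2.4.6. Peaks on the 6 main chromosomes were merged at 1 bp overlap. For a mock library, sites were chosen again from the 5 other libraries of its antibody, with at least 3 of 5. Shares of sites carry no test, because the sites were chosen from the mock lists. The members, the gene lists and the tests were chosen with earlier results of these data known. Named sites were, by strength, the 10 strongest, the 5 strongest found in all mock lists and in all or in no Nurf301 knockdown lists, the 5 strongest with a peak in every su(Hw) knockdown list, with CP190 or NURF301 in every library of a knockdown group or with GFP in all 3 libraries (no site met these last conditions), and the 5 strongest per gene list; others are said to be chosen later. The Fisher step was tested on simulated data. Alternatives were summits extended by 150 bp, a -log10 q floor of 20, stricter site rules, single mock series, equal list lengths and each library left out. A motif search was not run, as no genome sequence was used here.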

Additional observations from a re-analysis of the deposited data

How the results depend on the processing

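The number of partnerless sites was 991, 1509 with reference sites in 6 of 6 lists, 525 without any partner peak in a mock list, and 789 to 1369 with single libraries left out. The Su(Hw) share after Nurf301 knockdown minus mock was -53.6 to -34.7 points with libraries left out, 9.15 with mock lists cut to the knockdown length by -log10 q and -2.32 by fold enrichment; the cause was not tested. After su(Hw) knockdown it was -81.7 to -73.3, -99.1 at sites chosen by the other mock series and -0.402 with cut lists, which hold few peaks by construction. Lost sites after Nurf301 and su(Hw) knockdown were 235 and 1507 with the 6 of 6 rule and 61 and 283 without any partner peak. They were 0 and 0 against the matching series and at sites chosen by the other series, where 3 against 3 libraries cannot reach 0.05. With cut lists, tested with 6 against 3 libraries, they were also 0 and 0 (for Nurf301 also by fold enrichment). With libraries left out they were 0 to 311 and 437 to 839.

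CP190 shares minus mock after Nurf301, Cp190 and su(Hw) knockdown were -54.0, -55.7 and -55.7 with the 6 of 6 rule, -3.93, -3.93 and -3.87 without any partner peak, -33.4, -33.5 and -5.39 at sites chosen by the other series, and -0.0587, 0.0 and 0.0336 with cut lists. NURF301 shares were -1.72, -1.36 and -1.72 with the 6 of 6 rule and 0.0 with cut lists. With libraries left out, each CP190 value was -17.5 to -10.1, each NURF301 value -0.372 to -0.176 and gained sites 0. The GFP share was 0.572%, 1.27% with extended summits, 8.33% with the 6 of 6 rule and 0.169% to 0.858% with libraries left out. The remaining 137 values with other settings moved by less than the SD between libraries or, for counts, by less than 1.5 times. Some still changed much in size: against the matching series the Su(Hw) difference after Nurf301 knockdown was -20.5 points and the CP190 difference after su(Hw) knockdown -7.34, each NURF301 difference was -0.0949 without any partner peak, and the GFP share was 0.0% with a -log10 q of 20 or more.

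Same-numbered libraries of the mock series and Nurf301 knockdown correlated by 0.02 to 0.12, and differently numbered ones by -0.11 to 0.04. The numbers were not taken as pairs, and these values do not settle whether they are. With the replicate block the Su(Hw) difference was -20.5 points after Nurf301 and -99.0 after su(Hw) knockdown. Read depth is unknown, so the precision that it gives these shares is too.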
